A study of Caenorhabditis elegans with 4 samples.

Results

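RNA polymerase II (Pol II) was bound at 208 sites on chromosome III in fed first-stage (L1) larvae of *Caenorhabditis elegans*. The sites are all entries for that chromosome in the authors' list of 1967 sites and make up 10.6% of it. Its samples were 2 of ChIP DNA and 2 of input DNA from hermaphrodites of N2, the wild-type laboratory strain. Both groups came from larvae grown at 20 °C and fixed with 2% formaldehyde, and by the labels they differed in the immunoprecipitation with the mouse monoclonal antibody 8WG16. The labels describe N2 as the DR subclone of the DB original with Tc1 pattern I.

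Pol II transcribes protein-coding genes and many small nuclear RNAs. The antibody binds the heptapeptide repeat at the tail of its largest subunit, encoded by *ama-1*. Polymerase at promoters and within genes can both be recovered, but not necessarily equally well. Worm genes are short and closely packed, and some are transcribed together as operons, so bound polymerase can extend over neighbouring genes. Autosome centres are known to be rich in conserved and broadly used genes, and the arms in repeats and recombination. Fed L1 larvae resume growth after hatching and hold many cell types in one extract. A site bound in few cells and one bound weakly in many could therefore not be told apart.

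Each site has a start and an end on the WormBase WS180 build and the authors' q-value for ChIP against input. Strength below means the rank of that q-value among all 1967 sites, and rank 1 is the lowest. Values for single libraries are not in the list, so nothing below has an error between replicates and no difference between chromosomes could be tested. The 491 strongest sites are called the top 491, and the sites ranked beyond 983 the bottom 984. Sequencing depth is unknown. Chromosomes II, IV, V and X are given as background, as values side by side. Sites were not assigned to genes because no WS180 annotation was used here.

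The 208 sites lay between 62096 and 13721727, a span of 13.7 Mb, and covered 455 kb or 3.33% of it. Coverage was 2.58% on II, 3.12% on IV, 2.36% on V and 2.03% on X. The density of 15.2 sites per Mb lay inside the background range of 8.30 to 18.3. The narrowest site on III was 1 bp, the median was 1258.5 bp and the widest was 12659 bp. Counted from the widest site down, 36 sites were enough to hold 50% of the covered bases. The 10 widest alone held 21.5%, against 14.1% to 23.0% on the background chromosomes. Among these 5 chromosomes, only IV had a higher density of sites than III, II had nearly the same, and III had the highest coverage. Chromosome I, which is not part of the background, held 861 of the 1967 ranked sites, with a median width of 498 bp. It lay above III in density, at 57.3 sites per Mb, and in coverage, at 5.04%.

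Pol II sites were most crowded in the centre of chromosome III and thinned out unequally to its ends. The span was divided into 3 equal parts, and each site was placed by its midpoint. The left part, from 62096 to 4615306, held 40 sites or 8.79 per Mb. The middle part, to 9168517, held 111 sites or 24.4 per Mb. The right part, to 13721727, held 57 sites or 12.5 per Mb. The middle part thus held 53.4% of the sites (Wilson 95% interval 46.6% to 60.02%), where even spacing would give 33.3%. This interval covers counting error only and treats sites as independent, although they were clustered. By covered bases the middle part held 47.9%. On the background chromosomes the middle part held 50.6% of the sites on II, 45.0% on IV, 61.9% on V and 37.7% on X. Crowding in the centre was thus shared with II, IV and V, and the share was highest on V.

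The unequal ends were seen on other chromosomes too, but not in the same order. On II the left part held 28 sites and the right part 86. On IV the order was opposite, with 103 sites on the left and 68 on the right. On V the ends held 43 and 40 sites, and on X they held 45 and 41. The right end of III thus had more sites than its left end, as on II and unlike IV, V and X.

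**Figure D1:**
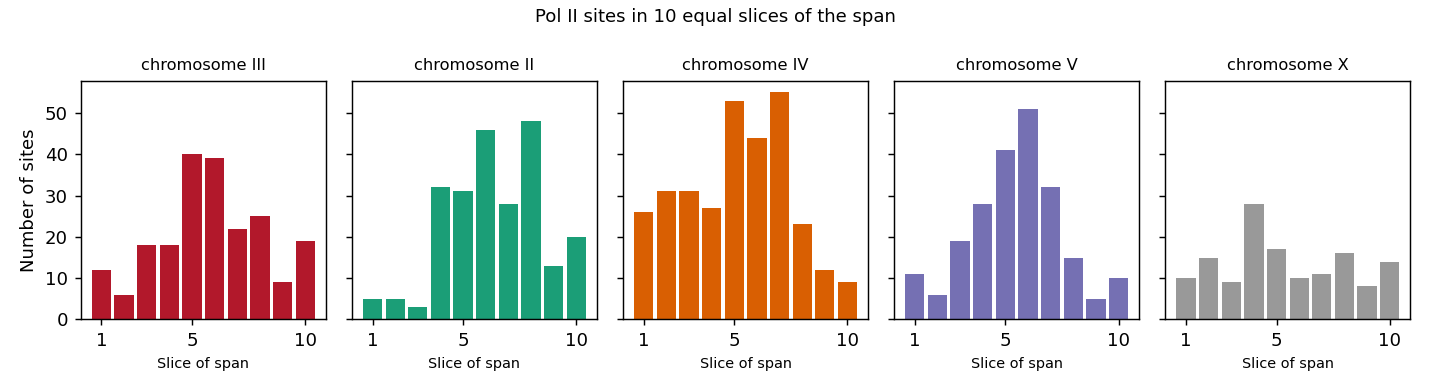
Number of Pol II sites (vertical axis) in each of 10 equal slices of the span from the first to the last site (horizontal axis), for chromosome III and for II, IV, V and X. On III slice 5 holds 40 sites and slice 6 holds 39, against 6 in slice 2 and 9 in slice 9.

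Finer counts showed a narrow crest and a partial recovery at each end. When the span was cut into 10 equal slices, slice 5 held 40 sites and slice 6 held 39. Slice 2 held 6 sites and slice 9 held 9. The outermost slices held 12 on the left and 19 on the right, more than the slices next to them. Chromosome V had the same form, with 41 and 51 sites in slices 5 and 6. Its outermost slices held 11 and 10, against 6 and 5 next to them. On II and X only the right end rose, to 20 from 13 and to 14 from 8, and on IV neither end did. By megabase on III, the window from 5000001 to 6000000 held 31 sites and that from 7000001 to 8000000 held 30. They covered 57.7 kb and 58.0 kb, the most of any megabase on the chromosome. At the low end, the megabase from 1000001 to 2000000 held 4 sites, that from 11000001 to 12000000 held 5 and that from 2000001 to 3000000 held 6. The last of these covered 5.34 kb and held no site of the top 491.

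Crowding and strength did not follow the same course. Of the 57 sites in the right part, 24 or 42.1% belonged to the top 491. The share was 29.7% in the middle part (33 of 111) and 25% in the left part (10 of 40). The right part also had the widest typical site, with a median of 1949 bp against 826 bp in the middle and 829.5 bp on the left. Sites under 1 kb made up 29.8% of the right part, 50.5% of the middle and 52.5% of the left. The widest class behaved differently: sites of at least 5 kb made up 20.0% of the left part, 9.91% of the middle and 5.26% of the right. The left end thus joined few sites, as narrow as those of the middle, with several very broad ones. The right end held fairly broad and strong sites. For the left and right ends, the share of at least 5 kb was 0% and 5.81% on II and 7.77% and 4.41% on IV. It was 14.0% and 22.5% on V and 15.6% and 12.2% on X. The right part had a wider median than the middle on IV, V and X, but not on II. Its share in the top 491 was above that of the middle on II, IV and X, but not on V.

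**Figure D2:**
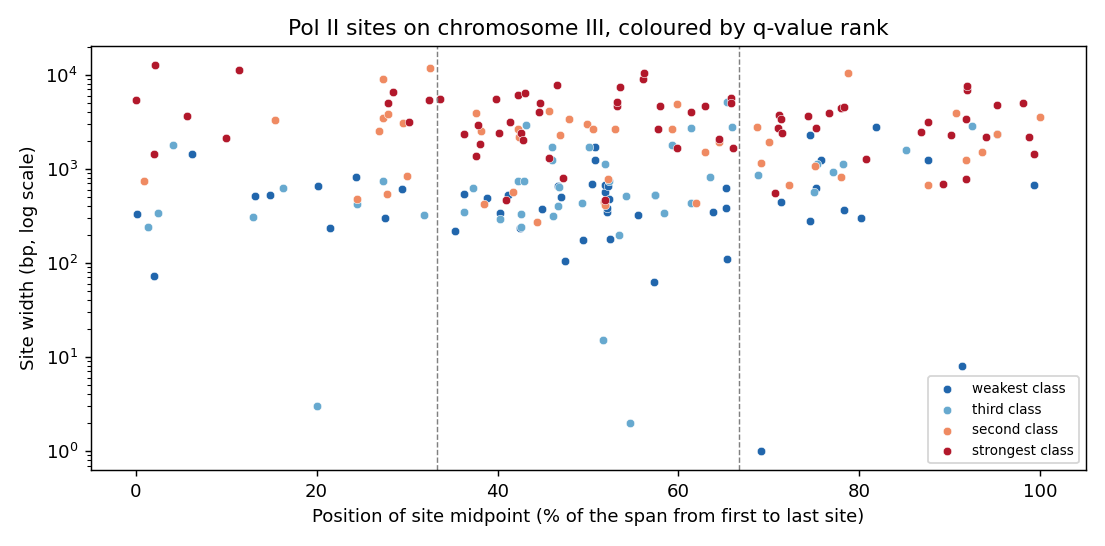
Width of each of the 208 sites on chromosome III (vertical axis, bp, log scale) against the position of its midpoint in percent of the span (horizontal axis). Colours give 4 classes of equal size in the whole list by q-value rank, and dashed lines separate the 3 equal parts, which hold 40, 111 and 57 sites.

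Of the 10 strongest sites on the chromosome, 3 lay in the left part, 6 in the middle and 1 in the right. The middle part held 53.4% of all sites of III and 33 of its 67 sites in the top 491, or 49.3%. The first was 5600 bp wide, from 5501257 to 5506856, and ranked 3 in the whole list with a q-value of 1.67e-262. It stood alone, 136605 bp from its left neighbour and 43328 bp from its right one. The second, from 8443206 to 8447259, was 4054 bp wide and ranked 7 (1.20e-241). Its surroundings were different: the nearest site on its left was 210023 bp away, and to its right followed sites of 2693 and 432 bp after gaps of 313 and 204 bp. These companions ranked only 1435 and 1127, so the second strongest site of the chromosome was followed closely by 2 sites of the bottom 984.

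The next in order were a 6451 bp site from 5937949 to 5944399 (rank 17, 1.73e-204) and a 3688 bp site from 832787 to 836474 (rank 38, 2.64e-136). The latter was the strongest of the left part, with neighbours 210994 and 72756 bp away. Ranks 51 and 64 belonged to sites from 8651871 to 8656484 (4614 bp, 6.03e-117) and from 9050195 to 9055167 (4973 bp, 7.12e-101). They were followed by the sites from 4192947 to 4196123 (rank 72, 3177 bp) and from 5023390 to 5025754 (rank 74, 2365 bp). The last of the 10 were the sites from 1615903 to 1627150 (rank 81, 11248 bp) and from 10214028 to 10217688 (rank 98, 3661 bp). All 10 were at least 2365 bp wide, and 5 of them had a neighbour less than 10 kb away. Among all 208 sites of III, 46.6% had no neighbour that close, so the 10 did not stand out in this. Only the site at 1615903 was also among the 10 widest of the chromosome.

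Chromosome III held 5 of the 10 sites of at least 10 kb in the whole list, whereas chromosomes I, II, IV, V and X held 1 each. At a limit of 5 kb the picture was less lopsided: III had 22 such sites, or 10.6% of its sites, against 5.19% on II, 4.50% on IV, 11.5% on V and 13.8% on X. The limit fell between sites of 4998 and 5058 bp. The 22 broad sites covered 167 kb, or 36.6% of all covered bases of the chromosome. Their positions were 8 in the left part, 11 in the middle and 3 in the right. With a limit of 3 kb the number was 53, of which 38 were in the top 491.

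The broad sites ranged in strength from rank 3 to rank 1443. Of the 22, 4 were among the 100 strongest of the list, 14 more were in the top 491, and 4 were outside it. Among all 208 sites of III, 11 were in the first 100 and 67 in the top 491. Of the 5 sites of at least 10 kb, the widest ran from 345418 to 358076 (12659 bp) and ranked 321 with a q-value of 1.19e-21. It was followed in width by the site from 4496958 to 4508689 (11732 bp, rank 529, 1.22e-11). The site from 1615903 to 1627150 (11248 bp) was by far the strongest of the 5, at rank 81 and a q-value of 1.80e-80. The other two ran from 10810530 to 10821024 (10495 bp, rank 735, 6.43e-08) and from 7728371 to 7738808 (10438 bp, rank 244, 4.57e-31). The strongest site of the chromosome was narrower than all 5, at 5600 bp.

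The remaining 5 of the 10 widest were of 7504 to 9110 bp. They ran from 3793373 to 3802482 (rank 610), from 7718968 to 7728072 (rank 357), from 6415231 to 6423016 (rank 254), from 12610464 to 12618053 (rank 338) and from 7369539 to 7377042 (rank 158). In all, 6 of the 10 widest had a neighbour less than 500 bp away, against only 40 of all 208 sites.

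Of the 22 sites of at least 5 kb on III, 4 or 18.2% were outside the top 491. The numbers were 0 of 12 on II, 5 of 14 on IV (35.7%), 5 of 25 on V (20.0%) and 6 of 19 on X (31.6%). Of all 208 sites on III, 32.2% were inside the top 491. The 4 on III were the sites at 4496958, 3793373 and 10810530 given above and one from 8980408 to 8985498. This last site was 5091 bp wide yet ranked 1443, with a q-value of 0.00129. It was the only one of the 4 in the bottom 984. Its left neighbours, 632 and 388 bp wide, ranked 1589 and 1695, so the whole group was weak.

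**Figure D3:**
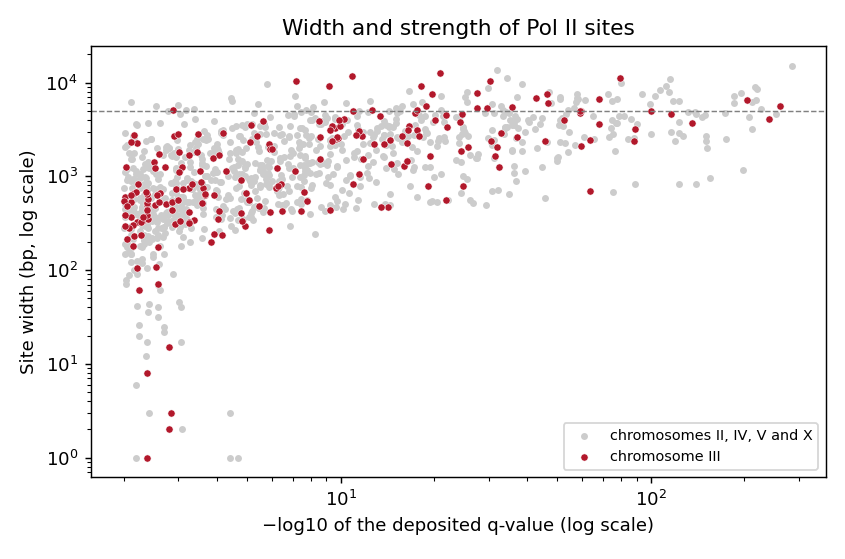
Width (vertical axis, bp, log scale) against −log10 of the deposited q-value (horizontal axis, log scale) for 208 sites on chromosome III in red and the sites of II, IV, V and X in grey. The dashed line marks 5 kb, and 22 sites of III lie above it, from rank 3 to rank 1443.

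At the other extreme, some strong sites were narrow. In the top 491, III had 67 sites, and 6 of them were under 1 kb wide. The 5 narrowest were of 468 to 787 bp. The strongest of these ran from 12250150 to 12250839, only 690 bp wide, and ranked 105 with a q-value of 1.44e-64. It lay isolated in the right part, 224336 bp from its left neighbour and 116111 bp from its right one. Another narrow site ran from 9717123 to 9717681 (559 bp, rank 306, 1.44e-22), with neighbours 85556 and 47003 bp away. The others began at 5653568 (468 bp, rank 432), at 7141206 (468 bp, rank 455) and at 12595546 (787 bp, rank 344).

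Width and −log10 q went together across the 208 sites, with a Spearman's rho of 0.71, against 0.60 to 0.69 on the background chromosomes. This is a description only, since all sites share the same libraries, and the part that width itself has in a q-value was not tested. The list was divided into 4 classes of equal size by rank. In the strongest class the median width was 3427 bp on III (67 sites) and 3066 bp on II, IV, V and X (258 sites). In the next class it was 2312 bp (45 sites) against 1337 bp (221 sites). In the third class the order turned, with 633 bp (45 sites) against 821.5 bp (210 sites). In the weakest class it was 494 bp (51 sites) against 436 bp (209 sites). By the median, sites on III were thus wider than those on II, IV, V and X in the second class and narrower in the third. The widths overlapped widely. In the second class the quartiles were 785 and 3285 bp on III and 781 and 2616 bp on the other 4. In the third they were 336 and 1139 bp against 455 and 1686.5 bp.

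The weakest entries were small. The 5 highest q-values on III, from 0.00941 to 0.00986, belonged to sites of 299 to 1246 bp that began at 5027009, 4083677, 11007643, 7183994 and 10414965. Sites under 50 bp numbered 5, with widths of 1, 2, 3, 8 and 15 bp and ranks from 1459 to 1689. Their q-values, between 0.00144 and 0.00416, were not the highest on the chromosome. The background chromosomes had 2 to 8 sites of this size.

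Neighbouring sites on III were unevenly spaced. The shortest gap was 204 bp, the median 26.5 kb and the longest 524 kb. Median gaps were 21.0 kb on IV, 23.1 kb on II, 42.8 kb on V and 55.9 kb on X. Of the 207 gaps on III, 21 were under 500 bp, 4 were from 500 bp to 1 kb, 44 from 1 to 10 kb, 96 from 10 to 100 kb and 42 longer. The number thus fell from 21 in the first 500 bp to 4 in the next 500 bp. It fell from 14 to 7 on II, from 39 to 15 on IV, from 18 to 7 on V and from 9 to 4 on X. No gap in the whole list was shorter than 201 bp, and the distance at which the caller merges neighbours is not stated. The median gap was 18.9 kb in the middle part, 71.3 kb in the left part and 51.7 kb in the right part.

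**Figure D4:**
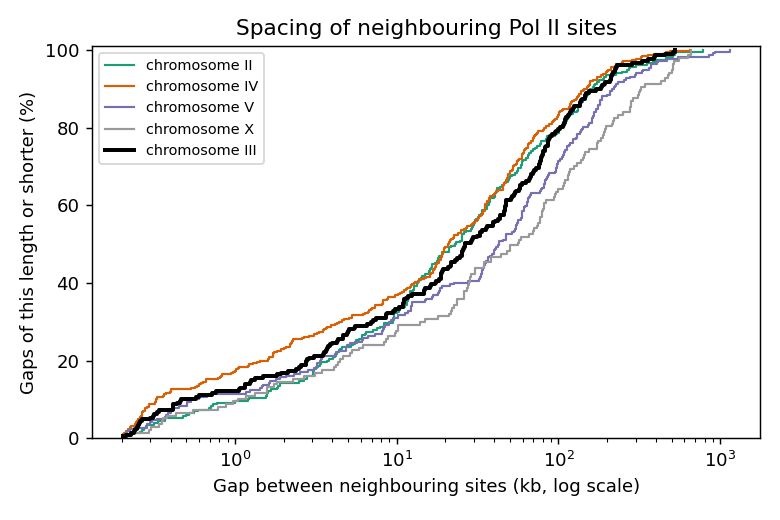
Cumulative percentage of gaps (vertical axis) of a given length or shorter (horizontal axis, kb, log scale) between neighbouring sites on chromosome III (thick black line) and on II, IV, V and X. On III, 12.1% of gaps are under 1 kb and 33.3% are under 10 kb, and all curves start just above 200 bp.

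Gaps under 500 bp joined 40 of the 208 sites into 19 runs, 17 of them pairs. The runs lay 4 in the left part, 11 in the middle and 4 in the right. Of the 21 gaps inside them, 15 were under 350 bp and the longest was 464 bp. Sites in runs were broad, with a median width of 3246 bp against 849.5 bp for the 168 other sites. Among sites in runs, 22 of 40 belonged to the top 491, and among the others 45 of 168. Of the 22 sites of at least 5 kb, 11 lay in runs.

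Taken as single stretches, 7 runs reached at least 10 kb. The longest was 19841 bp, from 7718968 to 7738808, and was made of sites of 9105 and 10438 bp parted by 298 bp. This was longer than any such stretch elsewhere, since the longest was 15.2 kb on X, 13.7 kb on IV, 12.3 kb on I, 11.3 kb on V and 11.1 kb on II. The next on III ran from 4491144 to 4508689 (17546 bp), where a 5401 bp site of rank 248 stood 413 bp from the 11732 bp site of rank 529. Another ran from 343710 to 358076 (14367 bp) and held the widest site of the chromosome. The pair from 3789479 to 3802482 (13004 bp) had nearly equal q-values, 3.92e-10 and 6.72e-10. Similar strength was seen also in the pair from 7329030 to 7339221 (10192 bp), with ranks of 369 and 364.

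Other runs joined sites of very unequal strength. In 8 of the 19, −log10 q differed by at least 10 between the strongest and the weakest site of the run. In the run from 9044319 to 9055167 a 5638 bp site with a q-value of 1.27e-19 stood 238 bp from a 4973 bp site with one of 7.12e-101. The run headed by the second strongest site of the chromosome, at 8443206, was the extreme case, with q-values from 1.20e-241 to 0.00124. Of the 19 runs, 5 held sites of the top 491 alone, 3 held none of these and 11 held both kinds. These counts go with 22 of the 40 sites in runs being in the top 491. Whether strength was more mixed in runs than among other neighbours was not tested.

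**Figure D5:**
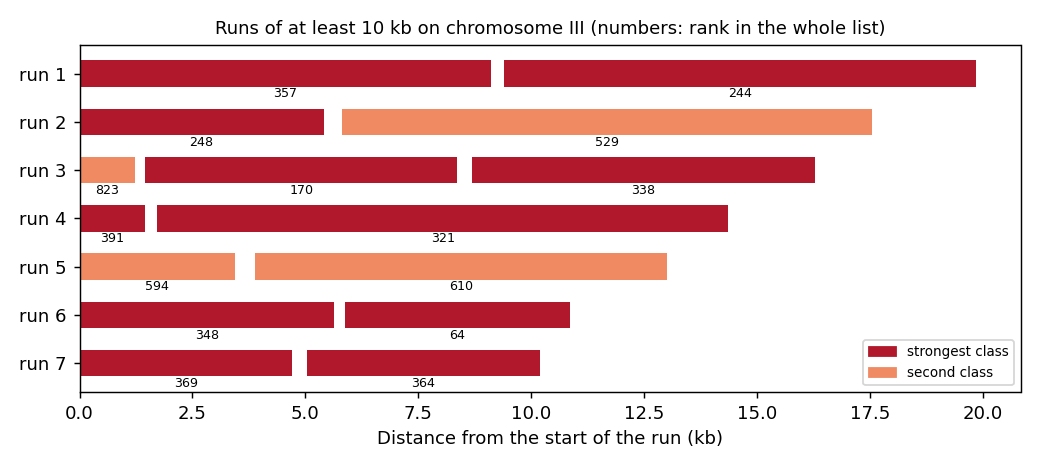
The 7 runs of at least 10 kb on chromosome III, each drawn to scale from its own start (horizontal axis, kb) with 1 bar per site and the rank of each site in the whole list below it. Red bars are sites of the strongest of 4 rank classes and orange bars of the second. Gaps inside the runs are under 500 bp, and the top run, of 19841 bp, is made of sites of rank 357 and 244.

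With a wider limit of 10 kb the 208 sites formed 139 clusters. Of these, 97 were single sites, 23 were pairs and 19 held 3 sites or more. The 19 larger clusters held 65 sites, or 31.3% of the chromosome's sites, against 24.7% on II, 31.5% on IV, 23.4% on V and 9.42% on X. The largest cluster on III had 6 sites, and the background chromosomes reached 4 to 8.

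The 3 largest clusters were of opposite kinds. Both clusters of 6 sites lay side by side in the middle part, from 7140189 to 7156055 and from 7179640 to 7210192. Together with a site at 7221141 they put 13 sites between 7140189 and 7221320, and no 100 kb window that began at a site of III held more. All 13 were narrow, from 180 to 1132 bp with a median of 479 bp, and they covered only 7.28 kb. Their best rank was 455, and 9 of the 13 were in the bottom 984, against 96 of all 208 sites of III (46.2%). The cluster of 5 sites, from 12595546 to 12618053 in the right part, was nearly continuous: its sites of 787, 3373, 1228, 6926 and 7590 bp covered 88.4% of 22508 bp. Of these 5 sites, 4 were in the top 491, against 67 of all 208, and the best rank was 170. Crowding by number and crowding by covered bases thus picked different places.

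The remaining clusters of 3 sites or more all held 3. Only the longest of these are described, and they were also mixed. From 340061 to 358076 a 72 bp site preceded the widest site of the chromosome and its 1452 bp neighbour. From 10746012 to 10763478 a 4538 bp site of rank 307 ended a cluster that covered 34.6% of 17467 bp. From 5550185 to 5567643 a 2419 bp site of rank 106 was followed by sites of 343 and 293 bp. The clusters from 9044319 to 9060539 and from 3789479 to 3804705 were covered to 82.8% and 87.2%. Of the 100 kb windows that began at a site, the most covered began with the latter cluster, at 3789479, and held 7 sites that covered 23.0 kb.

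Long stretches without a site lay mostly outside the centre. Gaps of at least 200 kb numbered 17 on III, with 9 in the left part, 2 in the middle and 6 in the right. They added up to 5.21 Mb or 38.1% of the span, against 31.6% on IV, 39.5% on II, 49.96% on V and 63.3% on X. Stretches before the first and after the last site are not counted. The first site began at 1010457 on X, against 62096 on III. The longest gap of III, at 524 kb, was shorter than the longest of II (787 kb), IV (651 kb), V (1151 kb) and X (656 kb). On III it ran from 2282250 to 2806309, and a gap of 508 kb ran from 910668 to 1418676. The next were 454 kb from 11240077, 396 kb from 2995995, 389 kb from 13072315, 360 kb from 9081378, 330 kb from 3405882 and 285 kb from 9929405. Gaps of at least 300 kb numbered 7, of which the one from 9081378 to 9440978 crossed the border between the middle and the right part.

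Both strong and weak sites bordered the empty stretches. Of the 17, 11 had a site of the top 491 on at least one side, as had 114 of all 207 gaps on III. Sites of the bottom 984 stood on both sides of 5 of the 17 and of 43 of the 207. The stretch from 13072315 to 13460815 was bordered by sites of 4745 and 4998 bp with neighbouring ranks, 112 and 113. By contrast, the longest stretch ended in a 3 bp site of rank 1459. In all, 11 sites were at least 100 kb from any neighbour, 5 of them in the left part, 2 in the middle and 4 in the right, and 4 of the 11 were in the top 491, as were 67 of all 208. At the ends of the span, the first site, from 62096 to 67520, was 5425 bp wide and ranked 256. The last, from 13718186 to 13721727, was 3542 bp wide and ranked 949.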

How the data were processed

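Pol II ChIP and input DNA of fed L1 larvae gave a single list of sites, combined by its name. Sites were called by PeakSeq on WormBase WS180, per the file headers and source field. The authors deposited a start, an end and a q-value for each site, and no count, fold or value per library. The sources used here do not give the aligner, the caller's version, the treatment of replicates or the depth. The protocol text speaks of embryos and an anti-GFP serum; the labels (fed L1, 8WG16) were followed.

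All 1967 sites were ranked by q-value. Ranks 491 and 983 mark 1 of 4 and 1 of 2 classes of nearly equal size. The span ran from the first start to the last end, and gaps are the bases between neighbours. Sites under 500 bp apart formed runs and under 10 kb apart clusters. Sites were named by rule: the 10 strongest, the 10 widest, the first and last, and broad sites outside the top 491. The same rule took the 5 narrowest of the top 491 and the 5 highest q-values. It also took the 8 longest gaps and the 8 clusters with the most sites, the longer first when tied. Other named runs, megabases and windows were picked with their values in view. The members and limits were chosen with earlier results of these data known. No test was run, because there is no value per sample. Procedures were checked on simulated layouts. Python 3.11.15, pandas 2.3.3 and SciPy 1.17.1 were used.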

Additional observations from a re-analysis of the deposited data

How the results depend on the processing

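Of 25 alternative values for 8 results, 18 held and 7 moved. Numbers held within a factor of 1.5, and the middle share and the medians within a 95% interval that treats sites as independent. The tally does not measure robustness, because the number and the density of sites are nearly the same quantity and were both counted. Joining under 500 bp left 187 of 208 sites and a minimum width of 200 bp left 196. Neither change could pass the factor of 1.5. With the 983 lowest q-values alone, 112 sites or 8.20 per Mb were left, by construction, with a median width of 2685 bp and a median gap of 65.5 kb. The middle 50% of the span held 68.8% of sites, another quantity than the middle part. The 4 broad sites outside the top 491 became 15 with a limit of 3 kb and 1 in the bottom 984. Joining under 500 bp, added after the data were seen, left 3. Leaving out a replicate was not possible. No paired analysis was possible because replicates have no values of their own here. With depth unknown, an empty stretch is one without a listed site, not one shown to lack Pol II.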
